A study of Rattus norvegicus with 23 samples.

Results

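A set of 10 genes of endoplasmic reticulum (ER) stress and protein folding was followed in the rat kidney: Sdf2l1, Manf, Hspa5, Xbp1, Ddit3, Pdia4, Dnajb9, Hyou1, Creld2 and Herpud1. They were chosen by name, as the probe sets that carry exactly 1 of these symbols, and are 10 of the 14217 genes measured. The choice was made with earlier results of these data known. Each gene was read by its brightest probe set on average, and Hyou1 alone had a further probe set. The arrays, made by Affymetrix, measured 23 kidney RNA samples of male rats, 1 array each, in 4 groups of strain and kidney number. The labels number the samples and do not name animals, and each sample is called a rat here. SBH/y rats are the Sabra line prone to hypertension under salt loading, and SBN/y rats are the resistant line. All rats ate standard chow, without a stated salt load. The groups were SBN/y with 2 kidneys after a sham operation (n = 5), SBN/y with 1 kidney after uninephrectomy (n = 6), SBH/y with 2 kidneys after a sham operation (n = 6) and SBH/y with 1 kidney after uninephrectomy (n = 6). All were killed at 4 months of age, 3 months after surgery, and RNA came from frozen kidney in bulk, so fewer cells of a type and less RNA per cell cannot be told apart. The question was how these genes differed with strain and with the loss of a kidney, and whether Sdf2l1 followed the other 9.

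Proteins that enter the secretory pathway fold in the ER with the help of lumenal chaperones. When unfolded proteins accumulate, the sensors IRE1, PERK and ATF6 start the unfolded protein response: IRE1 splices the mRNA of the transcription factor XBP1, PERK slows translation and raises ATF4 and CHOP (the product of Ddit3), and cleaved ATF6 moves to the nucleus. ATF6 and XBP1 raise chaperone genes through the ER stress response element (ERSE), which pairs a CCAAT box bound by NF-Y with a CCACG box. In the kidney, ER stress has been studied in podocytes and proximal tubule cells, among others. Among the 10 genes, Hspa5 encodes BiP, the Hsp70 of the ER lumen. Hyou1 (the exchange factor GRP170), Dnajb9 (the J-domain protein ERdj4) and Manf work with BiP, and the MANF protein is also secreted. Sdf2l1 encodes a lumenal protein that binds the J-domain protein ERdj3. Pdia4 is a disulfide isomerase, Creld2 an ER stress-induced protein with EGF-like repeats, and Herpud1 a membrane protein of ER-associated degradation.

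The promoters are shown because the set is known for a shared regulatory element, and because Sdf2l1 is compared with the rest throughout. RefSeq promoter sequences of the GRCr8 assembly, from 250 bases before to 50 bases after a start site, were matched for 9 of the 10 genes, all but Manf. They are those of the reference rat and not of the Sabra lines. Capitals mark CCAAT or CCACG on either strand (ATTGG and CGTGG are the same words on the other strand), and positions count back from the base before the start site as -1. Sdf2l1 and Hspa5 are given from -250 to -1, and the others as a short window around the match.
Sdf2l1 promoter (chr11:97376628-97376877, plus strand): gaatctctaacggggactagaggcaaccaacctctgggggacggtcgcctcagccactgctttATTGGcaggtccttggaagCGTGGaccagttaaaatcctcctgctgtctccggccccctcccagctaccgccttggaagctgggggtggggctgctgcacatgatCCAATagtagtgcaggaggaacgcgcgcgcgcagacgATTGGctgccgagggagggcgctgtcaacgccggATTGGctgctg
Hspa5 promoter (chr3:38452766-38453015, plus strand): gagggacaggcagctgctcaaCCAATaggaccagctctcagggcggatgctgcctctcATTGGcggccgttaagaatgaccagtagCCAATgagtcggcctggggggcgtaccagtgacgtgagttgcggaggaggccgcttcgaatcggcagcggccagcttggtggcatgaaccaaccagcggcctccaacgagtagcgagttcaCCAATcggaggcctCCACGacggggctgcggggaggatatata
Xbp1 promoter (chr14:84604543-84604591, plus strand): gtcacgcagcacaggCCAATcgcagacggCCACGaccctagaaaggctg
Creld2 promoter (chr7:121789224-121789272, plus strand): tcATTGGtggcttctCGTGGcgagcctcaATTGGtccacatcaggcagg
Herpud1 promoter (chr19:10614806-10614846, minus strand): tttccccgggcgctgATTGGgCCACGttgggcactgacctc
Hyou1 promoter, upstream match (chr8:53602679-53602719, plus strand): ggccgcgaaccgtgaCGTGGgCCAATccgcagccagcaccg
Hyou1 promoter, downstream match (chr8:53602779-53602819, plus strand): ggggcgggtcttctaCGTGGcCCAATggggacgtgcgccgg

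The ERSE, searched as CCAAT, 9 bases of any kind and CCACG on both strands, was found for 3 of the 9 genes. It lay at -43 to -25 in Hspa5, at -65 to -47 in Xbp1 and on the minus strand at -145 to -127 in Creld2. Over all 33469 promoters of the same length, 22 held it (0.0657%). The second form, ERSE-II (ATTGG, 1 base and CCACG), was found in Hyou1, at -188 to -178 and at -88 to -78, and in Herpud1 at -124 to -114, against 17 promoters in all (0.0508%). In Sdf2l1 neither form was matched with this spacing. Its window held CCACG once, on the minus strand at -168 to -164, and CCAAT 4 times. The boxes alone are common: all 9 genes had a promoter with CCACG, as did 31.6% of all promoters, and all 9 had CCAAT, as did 37.5%. A gene counted if any of its promoters held the word, and the shares count promoters. A further Hyou1 promoter held CCAAT but not CCACG. The word TGACGTGG was found in Hyou1 and in 0.595% of all promoters, overlapping the CCACG of the upstream ERSE-II there. The word TGATGNAA, which the heterodimer of C/EBP and ATF proteins is known to bind, was found in Herpud1 and in 3.98% of all promoters. No match for Dnajb9, Ddit3 or Pdia4 was found beyond the separate boxes.

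Sdf2l1 was far higher in SBH/y than in SBN/y kidneys at both kidney numbers. In SBN/y rats with 2 kidneys its log2 signal was 4.81, 4.90, 4.55, 4.36 and 4.65. In SBN/y rats with 1 kidney it ran from 4.40 through a median of 4.63 to 5.04. In SBH/y rats with 2 kidneys it ran from 6.65 through 6.92 to 7.13, and in SBH/y rats with 1 kidney from 6.87 through 7.15 to 7.42. Every SBH/y rat was above every SBN/y rat, and the gap between the lines was several times the spread within a group. The group means were 4.66 ± 0.21 (SD, n = 5), 4.70 ± 0.23 (SD, n = 6), 6.89 ± 0.21 (SD, n = 6) and 7.15 ± 0.19 (SD, n = 6). The median of all tested values was 4.657, so in SBN/y the probe set read close to the middle of the array.

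With 2 kidneys the SBH/y minus SBN/y difference of Sdf2l1 was 2.23 ± 0.11 (log2, SE; limma adjusted p = 3.63e-14), a 4.7-fold difference in signal. With 1 kidney it was 2.46 ± 0.11 (adjusted p = 1.8e-15), a 5.5-fold difference in signal. No detection calls were used, so whether the SBN/y signal was above background is not known; where it was not, these folds are lower bounds. Sdf2l1 passed the test in 29 of 29 alternative fits in both, with differences from 2.16 to 2.29 with 2 kidneys and from 2.40 to 2.53 with 1. The gene was read by 1 probe set, so no further probe set could be set beside it. Whether the lines differ in the sequence that its probes bind was not examined here, and a difference in expression and one in hybridisation cannot be told apart from this signal alone.

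**Figure D1:**
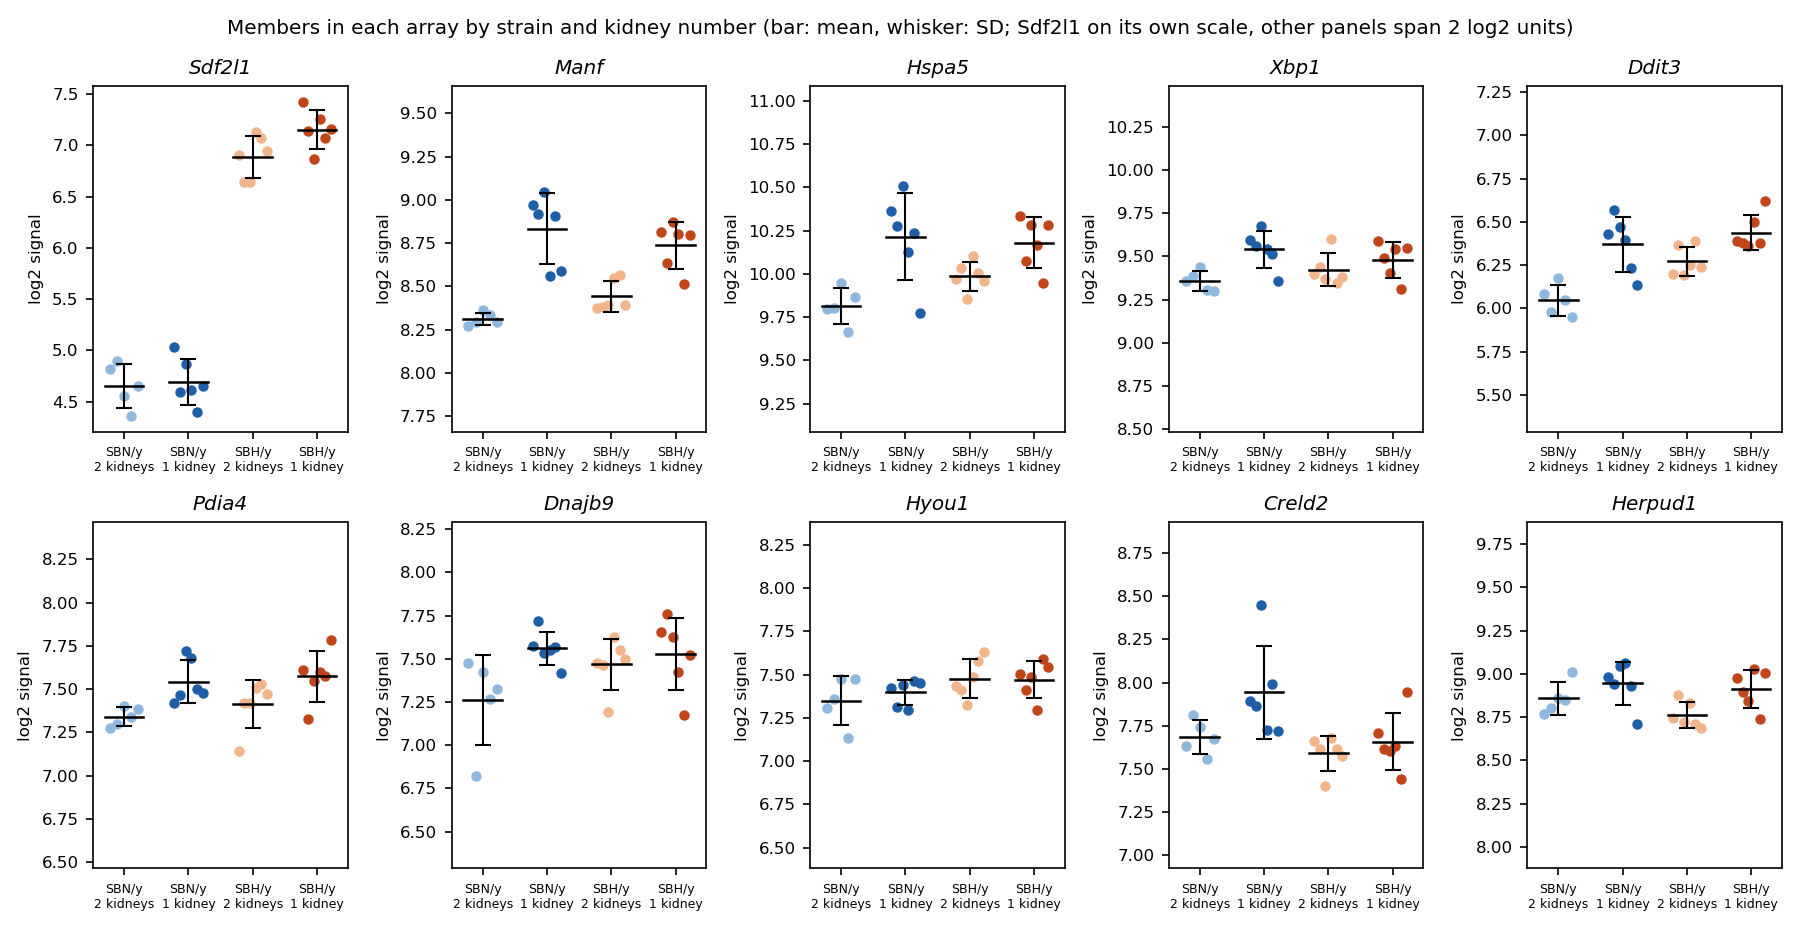
Log2 signal of the 10 genes on the 23 arrays, a panel per gene, with the 4 groups of strain and kidney number on the horizontal axis; points are rats, bars group means and whiskers SD. The Sdf2l1 panel has its own wider scale and the other panels span 2 log2 units each. Sdf2l1 separates the strains, with SBN/y rats at 4.36 to 5.04 and SBH/y rats at 6.65 to 7.42, while Manf is higher with 1 kidney in both strains.

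The other 9 genes differed little between the strains. With 2 kidneys, their SBH/y minus SBN/y differences lay between -0.09 and 0.22, with a median of 0.13 against 0.007 over all genes. With 1 kidney they lay between -0.28 and 0.07, with a median of -0.03. With 2 kidneys, 2 of the 10 genes were called higher, Sdf2l1 and Ddit3, and 0 lower, where 4.32% of all 31042 probe sets were called higher and 4.75% lower (adjusted p under 0.05). At an unadjusted p under 0.05 the counts were the same, against 9.45% and 9.92% of all probe sets. With 1 kidney, 1 gene was called higher (Sdf2l1) and 1 lower (Creld2), where 7.55% of all probe sets were called higher and 6.43% lower, and the unadjusted counts were again the same, against 12.2% and 11.5%. Outside Sdf2l1 these counts are thus close to the background.

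Ddit3, whose product CHOP is a transcription factor of prolonged ER stress, was 6.09, 5.98, 6.18, 6.05 and 5.95 in SBN/y rats with 2 kidneys. In SBH/y rats with 2 kidneys it ran from 6.19 through 6.24 to 6.39, above all of them. The difference was 0.22 ± 0.07 (log2, SE; limma adjusted p = 0.0438). It passed in 18 of 29 alternative fits, with adjusted p from 0.0147 to 0.12. Many of these passes came from leaving out a rat with 1 kidney, which leaves the difference itself unchanged. Of the fits without a rat with 2 kidneys, only those without SBN/y replicate 3 or SBH/y replicate 1 or 3 kept the call. It was lost with the GAPDH covariate described below, with the replicate number as a block, and without SBN/y 2-kidney replicate 1, 2, 4 or 5, SBN/y 1-kidney replicate 1 or SBH/y 2-kidney replicate 2, 4, 5 or 6. With 1 kidney the strain difference of Ddit3 was 0.07 ± 0.07 (adjusted p = 0.638).

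Creld2, the ER stress-induced EGF-repeat protein gene, was lower in SBH/y than in SBN/y rats with 1 kidney, by -0.28 ± 0.09 (log2, SE; limma adjusted p = 0.0416). In SBN/y it ran from 7.72 through 7.88 to 8.45, and SBH/y rats lay at 7.44 to 7.94 with a median of 7.62, so the groups overlapped. It passed in 18 of 29 alternative fits, with adjusted p from 0.013 to 0.126. Many of these passes came from leaving out a rat with 2 kidneys, which leaves the difference itself unchanged. Of the fits without a rat with 1 kidney, only those without SBN/y replicate 2, 4 or 6 or SBH/y replicate 6 kept the call. The SBN/y rat with 1 kidney numbered replicate 3 stood at 8.45 with the next at 7.99. The call was lost with only the groups compared in the fit, with the GAPDH covariate and with the replicate number as a block. It was also lost without that rat, SBN/y 1-kidney replicate 1 or 5 or SBH/y 1-kidney replicate 1, 2, 3, 4 or 5.

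**Figure D2:**
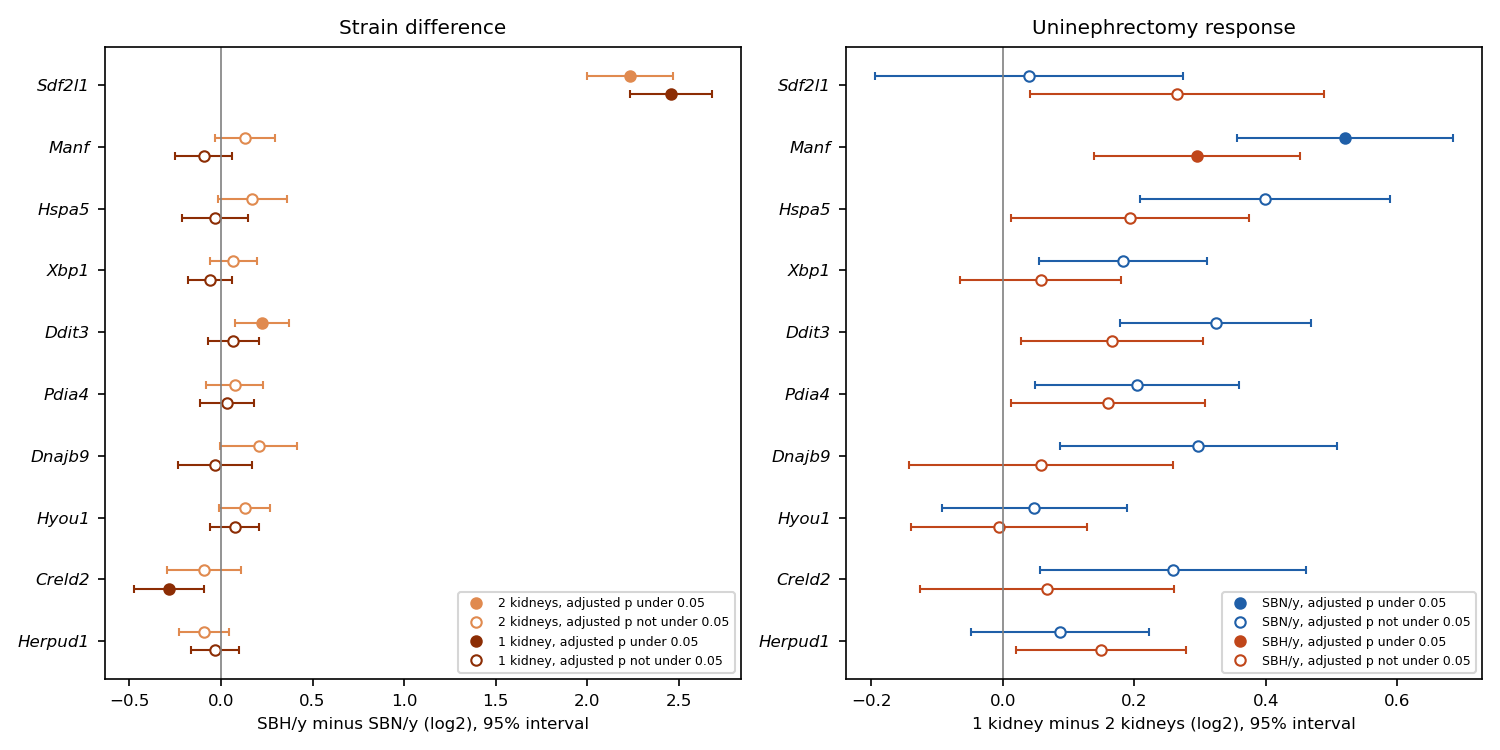
Log2 differences of the 10 genes with 95% intervals from the fit across all probe sets: on the left the strain difference (SBH/y minus SBN/y) at each kidney number, on the right 1 kidney minus 2 kidneys in SBN/y and in SBH/y; filled points have an adjusted p under 0.05. The 2 panels have different horizontal scales. On the left Sdf2l1 lies at 2.23 and 2.46 and the other 9 genes between -0.28 and 0.22; on the right Manf is the filled gene in both strains.

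Whether Sdf2l1 and another member differed unequally between the strains was tested within each array, as the Sdf2l1 log2 signal minus that of the partner. With 2 kidneys this quantity was higher in SBH/y by 2.01 to 2.33 for the 9 partners, and with 1 kidney by 2.38 to 2.74. All 9 partners passed in both comparisons by a two-sided exact permutation test over samples (p = 0.00433 with 2 kidneys and 0.00216 with 1 kidney, the smallest values these group sizes allow; adjusted p = 0.00866 over 36 tests). All of these tests share the Sdf2l1 values, which by themselves separated the strains. The passes thus restate that difference and are not separate results for 9 partners. In signal, Sdf2l1 differed between the strains by more than any of the other 9 members, and in that sense did not follow them.

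Genes beside Sdf2l1 and its relatives were read for comparison. Of the 10 measured genes on each side in chromosomal order, 20 in all, the strain differences ran from -0.30 to 0.60 with 2 kidneys and from -0.35 to 0.61 with 1 kidney. With 2 kidneys, 2 of the 20 were called higher and 2 lower, where 4.32% of all probe sets were called higher and 4.75% lower. With 1 kidney 2 were higher and 3 lower, against 7.55% and 6.43%. The called neighbours were Top3b (a DNA topoisomerase; 0.29 and 0.30 with 2 kidneys and with 1), Cebpd (a C/EBP transcription factor; 0.60 and 0.61), Pi4ka (a phosphatidylinositol 4-kinase; -0.23 and -0.35), Thap7 (-0.30 with 2 kidneys), and Fgd4 and Dnm1l (-0.25 and -0.26 with 1 kidney), of which Fgd4 was under the median signal in all groups. The nearest measured genes on either side, Ydjc and 2610318N02Rikl, differed by -0.02 ± 0.09 and 0.01 ± 0.12 (SE) with 2 kidneys and did not pass the test. With 1 kidney they differed by -0.17 ± 0.09 and 0.11 ± 0.12 (SE), also without a call. The group means were 3.23 to 3.40 for Ydjc, under the median signal, and 4.68 to 4.79 for 2610318N02Rikl, close to it. The size of their differences is thus uncertain. Serpind1, Hic2 and Ypel1 were also under the median signal in all groups.

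Sdf2, the paralog of Sdf2l1, and Dnajb11, which encodes its partner ERdj3, were named outside the naming rule, for their relation to Sdf2l1. The mean log2 signal of Sdf2 was 8.32, 8.28, 8.30 and 8.31 in SBN/y with 2 kidneys, SBN/y with 1, SBH/y with 2 and SBH/y with 1. Its strain difference was -0.02 ± 0.05 with 2 kidneys (log2, SE; limma adjusted p = 0.881) and 0.03 ± 0.05 with 1 (adjusted p = 0.818). For Dnajb11 the strain differences were -0.06 ± 0.06 (adjusted p = 0.681) and 0.07 ± 0.06 (adjusted p = 0.545).

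**Figure D3:**
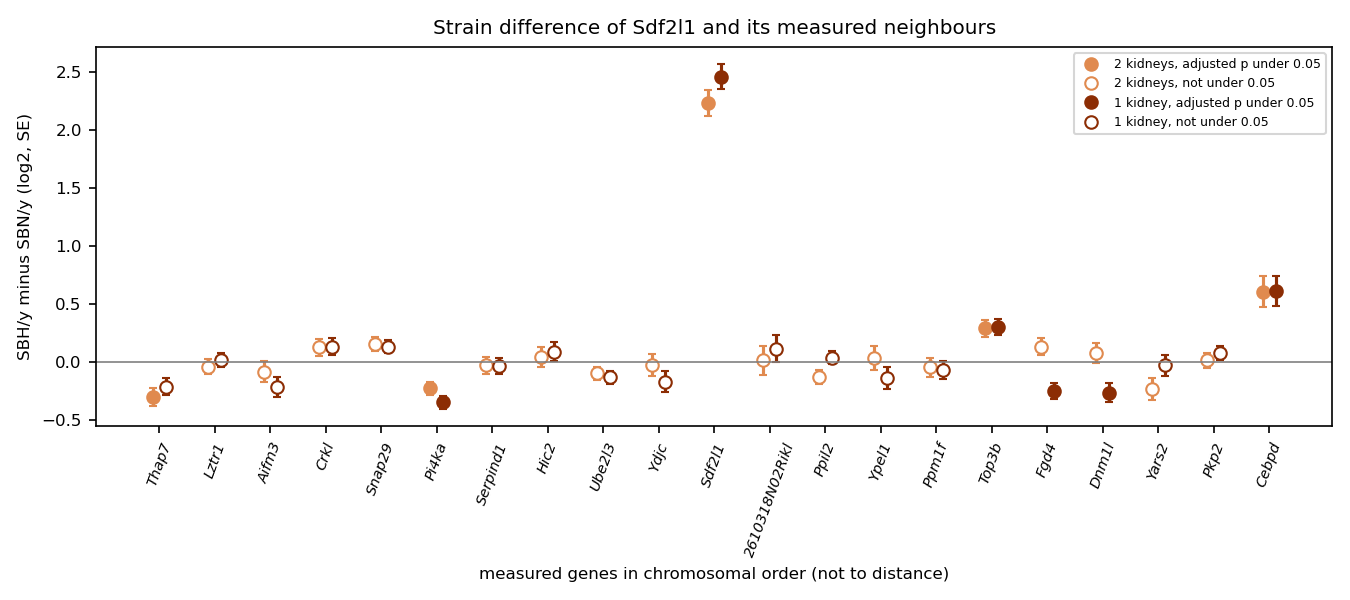
SBH/y minus SBN/y log2 difference with its standard error for Sdf2l1 and the 10 measured genes on each side of it, in chromosomal order and not to distance, at each kidney number; filled points have an adjusted p under 0.05. Sdf2l1 stands at 2.23 and 2.46, and the 20 neighbours lie between -0.35 and 0.61.

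Loss of a kidney raised Manf in both strains. Manf was 8.27, 8.29, 8.36, 8.33 and 8.29 in SBN/y rats with 2 kidneys and ran from 8.56 through 8.91 to 9.05 in those with 1. The 2 groups did not overlap, and the 5 rats with 2 kidneys lay between 8.27 and 8.36. In SBH/y, Manf ran from 8.38 through 8.39 to 8.57 with 2 kidneys and from 8.51 through 8.80 to 8.87 with 1, with a small overlap. The increase was 0.52 ± 0.08 (log2, SE; limma adjusted p = 0.00486) in SBN/y, or 1.43-fold, and 0.30 ± 0.08 (adjusted p = 0.0193) in SBH/y, or 1.23-fold. The difference between these responses was -0.23 ± 0.11 (adjusted p = 0.619). In SBN/y Manf passed in 29 of 29 alternative fits. In SBH/y it passed in 28 of 29, and without SBH/y 1-kidney replicate 1 its adjusted p was 0.0537.

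Manf was the only one of the 10 genes past the adjusted threshold in either response: 1 higher and 0 lower in SBN/y, where 0.0838% of all probe sets were called higher and 0.0838% lower, and 1 higher and 0 lower in SBH/y, where 3.06% were called higher and 1.97% lower. At an unadjusted p under 0.05, 7 of 10 genes were higher and 0 lower in SBN/y, against 3.7% and 3.92% of all probe sets. These were Manf, Ddit3, Hspa5, Xbp1, Dnajb9, Pdia4 and Creld2. In SBH/y, 6 of 10 were higher and 0 lower at that threshold, against 8.41% and 7.21%: Manf, Ddit3, Sdf2l1, Herpud1, Pdia4 and Hspa5. The fitted difference was above 0 for 10 of 10 genes in SBN/y and for 9 of 10 in SBH/y, and its median was 0.23 and 0.155, against 0.005 and 0.004 over all genes. The strain comparison with 2 kidneys and the response in SBN/y share the 5 SBN/y rats with 2 kidneys, so they are not independent. The members were chosen with earlier results of these data known, and several varied together between rats. These counts are therefore descriptive and are not a test of the set.

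Of BiP and its partners, Hspa5 was 9.80, 9.81, 9.95, 9.66 and 9.87 in SBN/y with 2 kidneys and ran from 9.77 through 10.26 to 10.51 with 1 kidney. The lowest of these, replicate 6 at 9.77, lay among the rats with 2 kidneys, and the other 5 were above all of them. The SBN/y difference was 0.40 ± 0.09 (log2, SE; limma adjusted p = 0.0835), and without that rat the fit called Hspa5, with adjusted p = 0.00559. In SBH/y, Hspa5 ran from 9.85 through 9.99 to 10.11 with 2 kidneys and from 9.95 through 10.22 to 10.33 with 1, a difference of 0.19 ± 0.09 (adjusted p = 0.271).

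Dnajb9 differed by 0.30 ± 0.10 in SBN/y (log2, SE; limma adjusted p = 0.379) and by 0.06 ± 0.10 in SBH/y (adjusted p = 0.864). The SBN/y rats with 2 kidneys stood at 7.48, 6.82, 7.42, 7.27 and 7.33, so 1 low rat widens that group. Hyou1 showed the smallest values of the BiP partners, 0.05 ± 0.07 in SBN/y (adjusted p = 0.954) and -0.01 ± 0.07 in SBH/y (adjusted p = 0.982). Its dimmer probe set gave -0.04 ± 0.08 and -0.10 ± 0.07, also without a call. Its group means were 7.35, 7.40, 7.48 and 7.47 in SBN/y with 2 and 1 kidney and SBH/y with 2 and 1.

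Of the transcription factors, Ddit3 ran from 6.14 through 6.41 to 6.57 in SBN/y with 1 kidney, with its lowest rat below the highest of the rats with 2 kidneys (6.18). The difference was 0.32 ± 0.07 (log2, SE; limma adjusted p = 0.0548), and 6 of 29 alternative fits called it, with adjusted p from 0.0168 to 0.143, among them those without SBN/y 1-kidney replicate 5 or 6 or SBH/y 1-kidney replicate 6. In SBH/y, Ddit3 ran from 6.36 through 6.38 to 6.62 with 1 kidney, and the difference was 0.17 ± 0.07 (adjusted p = 0.192). Xbp1 was 9.36, 9.39, 9.44, 9.30 and 9.30 in SBN/y with 2 kidneys and ran from 9.36 through 9.55 to 9.67 with 1. Its differences were 0.18 ± 0.06 in SBN/y (adjusted p = 0.373) and 0.06 ± 0.06 in SBH/y (adjusted p = 0.736). Splicing of Xbp1 mRNA was not examined here.

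The disulfide isomerase gene Pdia4 was 7.27, 7.30, 7.40, 7.34 and 7.38 in SBN/y with 2 kidneys and from 7.42 to 7.72 with 1, without overlap. Its differences were 0.20 ± 0.08 (log2, SE; limma adjusted p = 0.436) in SBN/y and 0.16 ± 0.07 (adjusted p = 0.26) in SBH/y. Creld2 differed by 0.26 ± 0.10 (adjusted p = 0.472) in SBN/y and 0.07 ± 0.09 (adjusted p = 0.824) in SBH/y. Herpud1, the degradation gene, had means of 8.86, 8.94, 8.76 and 8.91 in the 4 groups and differed by 0.09 ± 0.07 (adjusted p = 0.865) and 0.15 ± 0.06 (adjusted p = 0.22). Of the 6 genes of the SBH/y count, Herpud1 and Sdf2l1 are not among the 7 of the SBN/y count.

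Sdf2l1 itself differed between kidney numbers by 0.04 ± 0.11 in SBN/y (log2, SE; limma adjusted p = 0.985), with a 95% interval from -0.20 to 0.27, and by 0.26 ± 0.11 in SBH/y (adjusted p = 0.203), with an interval from 0.04 to 0.49. Within arrays, Sdf2l1 minus Manf fell by 0.48 in SBN/y after uninephrectomy (two-sided exact permutation p = 0.0173, adjusted p = 0.0328), the single partner of 9 to pass there. The 36 tests of that adjustment include the strain comparisons, all at their smallest possible p, which makes it easier to pass. An adjustment over the SBN/y partners alone was not made. Sdf2l1 minus Hspa5 differed by -0.36 (exact permutation p = 0.039, adjusted p = 0.0701). In SBH/y, 0 of 9 partners passed by this exact test, 1 of them below 0.05 before adjustment, and the within-array differences ran from -0.03 against Manf to 0.27 against Hyou1 (adjusted p = 0.0742). The Manf result in SBN/y was lost without 1-kidney replicate 2, 3 or 5 or 2-kidney replicate 1, 2, 3 or 5, and 2 partners passed without 1-kidney replicate 6. In SBH/y 3 partners passed without 1-kidney replicate 3, and 1 without 2-kidney replicate 4 or 5.

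For the difference between the strains in the uninephrectomy response, 0 of 10 genes were called in either direction, adjusted or not. Over all probe sets, 0.209% were called higher and 0.0451% lower after adjustment, and 4.58% and 3.48% before it. The fitted value was below 0 for 8 of 10 genes, meaning a larger fitted response in SBN/y, and above 0 for Sdf2l1 (0.23 ± 0.16, SE; limma adjusted p = 0.797) and Herpud1 (0.06 ± 0.09; adjusted p = 0.93). The median was -0.14, against 0.005 over all genes. The lowest was Dnajb9 with -0.24 ± 0.14 (adjusted p = 0.727). A difference between the strains in these responses was thus not shown for any of the 10 genes.

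Between rats of the same group, several members varied together. Each value was taken as its deviation from the group mean over 23 rats, and 45 pairs were tested by permutation within groups. Of the 36 pairs without Sdf2l1, 6 passed for Pearson's r and 4 for Spearman's rho, with r from -0.20 to 0.81 and a median of 0.37. Hspa5 and Manf had r = 0.81 and rho = 0.78 (adjusted permutation p = 0.00315 and 0.0072), and r = 0.76 without the 2 rats farthest from the median. Hspa5 and Xbp1 had r = 0.78 and rho = 0.69 (adjusted p = 0.00315 and 0.0243), and 0.67 without 2 rats. The rats share the array's processing as well as their group, and deviations within 1 array are not independent between genes.

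The other pairs that passed for r were Hspa5 with Creld2 (r = 0.74, rho = 0.64), Xbp1 with Herpud1 (r = 0.69, rho = 0.59), Hspa5 with Herpud1 (r = 0.66, rho = 0.52) and Xbp1 with Creld2 (r = 0.65, rho = 0.63). Their adjusted permutation p for r was 0.0447, 0.0282, 0.0447 and 0.0447, and for rho 0.0327, 0.0634, 0.113 and 0.0327. Without the 2 rats farthest from the median, r was 0.70, 0.56, 0.43 and 0.64. Of the 9 pairs with Sdf2l1, 0 passed, and 1 was below 0.05 before adjustment: Xbp1, with r = 0.47 and rho = 0.45 (permutation p = 0.0335, adjusted p = 0.126), and r = 0.44 without 2 rats. The r of Sdf2l1 with the others ran from 0.06 to 0.47, with a median of 0.27. Whether the Sdf2l1 correlations differ from those of the other pairs was not tested.

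**Figure D4:**
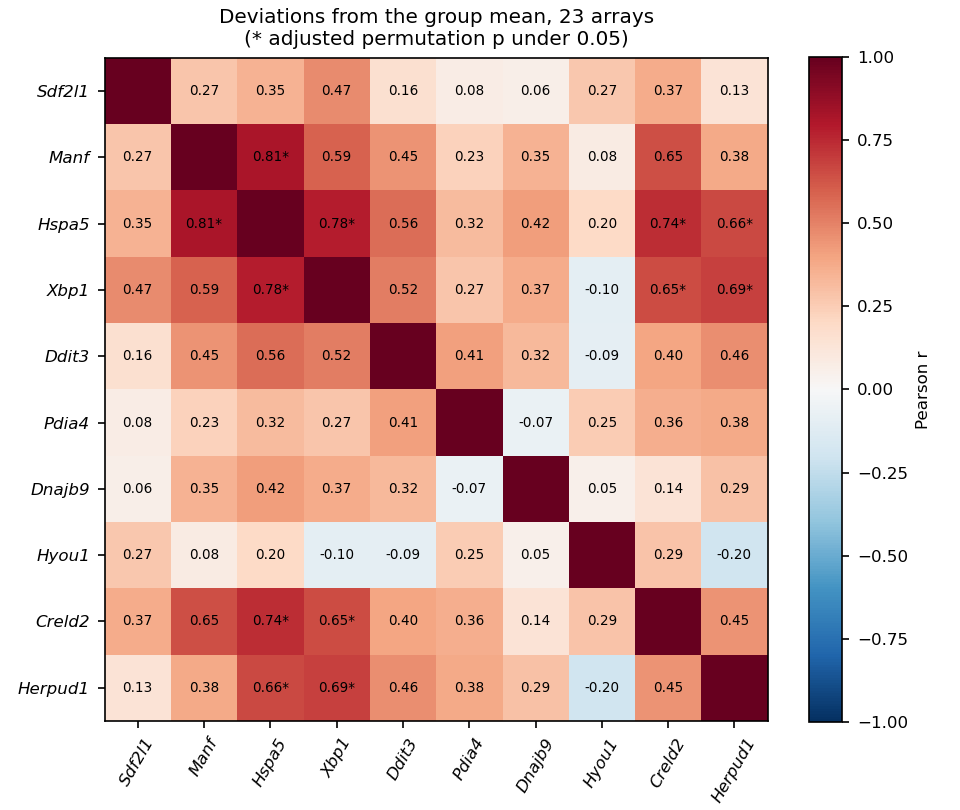
Pearson r between the deviations of the 10 genes from their group means over 23 arrays, for all 45 pairs on a colour scale from -1 to 1, with a star where the adjusted permutation p is under 0.05. The 6 starred pairs join Manf, Hspa5, Xbp1, Creld2 and Herpud1, from 0.65 to 0.81, and the Sdf2l1 row runs from 0.06 to 0.47.

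Other genes of the ER were taken from lists, of which 147 of 155 genes that are no members were measured. In SBN/y after uninephrectomy 0 of 147 were called, where 0.0838% of all probe sets were called higher and 0.0838% lower. At an unadjusted p under 0.05, 6 were higher and 3 lower, against 3.7% and 3.92%, and the median difference was 0.014. In SBH/y 13 were called higher and 0 lower, with a median of 0.063, against 3.06% and 1.97% of all probe sets. The unadjusted counts there were 39 higher and 4 lower, against 8.41% and 7.21%. For the difference between the responses 0 were called, against 0.209% higher and 0.0451% lower of all probe sets. Unadjusted, 11 were higher and 0 lower, against 4.58% and 3.48%. The median was 0.042, where the 10 members had a median of -0.14. Between the strains with 2 kidneys, 8 were called higher and 5 lower, against 4.32% and 4.75% of all probe sets, which is near the background. With 1 kidney 27 were called higher and 3 lower, against 7.55% and 6.43%.

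The lists below include the members that belong to them, and their counts are to be read against the same shares of all probe sets. After uninephrectomy these were 0.0838% higher and 0.0838% lower in SBN/y, and 3.06% and 1.97% in SBH/y. Between the strains they were 4.32% and 4.75% with 2 kidneys, and 7.55% and 6.43% with 1. At an unadjusted p under 0.05 the shares were 3.7% and 3.92%, 8.41% and 7.21%, 9.45% and 9.92%, and 12.2% and 11.5%, in the same order. Of 21 measured lumenal chaperones and cofactors, 1 rose in SBN/y after uninephrectomy (Manf) and 2 rose in SBH/y, Manf and the collagen prolyl isomerase gene Fkbp10 (0.31 ± 0.07, SE; limma adjusted p = 0.00617), which was under the median signal in all groups. Unadjusted, 5 were higher and 1 lower in SBN/y, and 10 higher and 0 lower in SBH/y. Between the strains with 2 kidneys 1 was higher, Sdf2l1, and 1 lower, Dnajc1 (-0.25 ± 0.08, SE, limma adjusted p = 0.0335). With 1 kidney 1 was higher, again Sdf2l1, and 0 lower. Of 18 disulfide bond genes, 0 were called in SBN/y, with 2 higher and 1 lower unadjusted, and 3 rose in SBH/y: Erp29 (0.24), Pdia3 (0.22) and Txndc5 (0.22). The unadjusted counts in SBH/y were 9 higher and 1 lower. Between the strains, 3 of the 18 were higher and 1 lower with 2 kidneys, and 7 higher and 2 lower with 1. Txndc5 was higher in SBH/y by 0.33 and 0.64, and the ER oxidase gene Ero1b lower, at -0.44 and -0.54, with 2 kidneys and with 1.

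Of 16 sensors, proteases and transcription factors of the response, 2 were higher in SBH/y at each kidney number, Nfya and Ddit3 with 2 kidneys and Nfya and Atf4 with 1. Nfya, a subunit of the CCAAT-binding NF-Y, was higher by 0.41 ± 0.07 (SE; limma adjusted p = 0.000335) and 0.36 ± 0.07 (adjusted p = 0.000553). Atf4, the factor downstream of PERK, was higher by 0.29. In SBH/y after uninephrectomy 3 of the 16 rose, Atf4 (0.30), Nfya (0.25) and Creb3 (0.19), and in SBN/y 0 did, with 3 higher unadjusted. The unadjusted counts in SBH/y were 5 higher and 0 lower. Of 30 targets of PERK and ATF4, 10 were higher and 1 lower in SBH/y with 1 kidney, led by Atf3 (0.84), Asns (0.71, asparagine synthetase) and Nupr1 (0.64). The Atf3 means were 2.98, 3.18, 3.42 and 4.02 in the 4 groups, all under the median signal, so the size of its differences is uncertain. With 2 kidneys 3 were higher, Atf3 (0.43) and Psat1 (0.34) among them, and 2 lower, Vldlr (-0.38) among them. In SBH/y after uninephrectomy 4 rose, with Atf3 (0.60), Aldh18a1 (0.39) and Atf5 (0.24), and in SBN/y 0 were called, with 3 higher and 1 lower unadjusted. The unadjusted counts of these targets in SBH/y were 11 higher and 0 lower.

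Of 23 genes of ER-associated degradation, 0 were called in either response, with 0 in SBN/y and 2 higher and 2 lower in SBH/y unadjusted. Between the strains the p97 ATPase gene Vcp was higher in SBH/y by 0.32 and 0.34 and Sel1l, the scaffold of the HRD1 ligase, was lower, at -0.28 and -0.28. In all, 1 of the 23 was higher and 1 lower with 2 kidneys, and 3 higher and 1 lower with 1. Of 28 genes of translocation, signal peptide cleavage and glycan transfer, 0 were called in SBN/y, with 1 higher unadjusted, and 2 rose in SBH/y, Sec11a (0.26) and Ssr2 (0.18). The unadjusted counts in SBH/y were 7 higher and 0 lower. Between the strains 1 was higher with 2 kidneys (Uggt1, 0.26) and 5 with 1, led by Sec61b (0.29) and Ssr2 (0.25). Of 22 KDEL receptor and ER to Golgi transport genes 0 were called in any comparison. Unadjusted, 3 were higher and 1 lower between the strains with 1 kidney, 2 higher and 1 lower in SBH/y after uninephrectomy, and 0 elsewhere.

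The cytosolic and mitochondrial heat shock chaperones were taken as a group outside the ER, with 20 measured. In SBN/y after uninephrectomy 1 rose, the Hsp40 gene Dnaja1 (0.44 ± 0.08, SE; limma adjusted p = 0.0144), and the list's median difference was 0.13. At an unadjusted p under 0.05, 8 of the 20 were higher and 2 lower there, against 3.7% and 3.92% of all probe sets. The unadjusted counts in SBH/y were 8 higher and 1 lower, against 8.41% and 7.21%. In SBH/y 3 rose, with Dnajb1 (0.57) and Dnajb4 (0.37) among them, and 1 fell, the small heat shock protein gene Cryab (-0.51). Between the strains, 7 were higher and 0 lower with 2 kidneys (4.32% and 4.75% of all probe sets), led by Dnaja1 (0.41), Chordc1 (0.52) and Ahsa1 (0.23), and 6 were higher and 1 lower with 1 kidney, Cryab (-0.48). For the difference between the responses 0 genes of any of these lists were called.

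**Figure D5:**
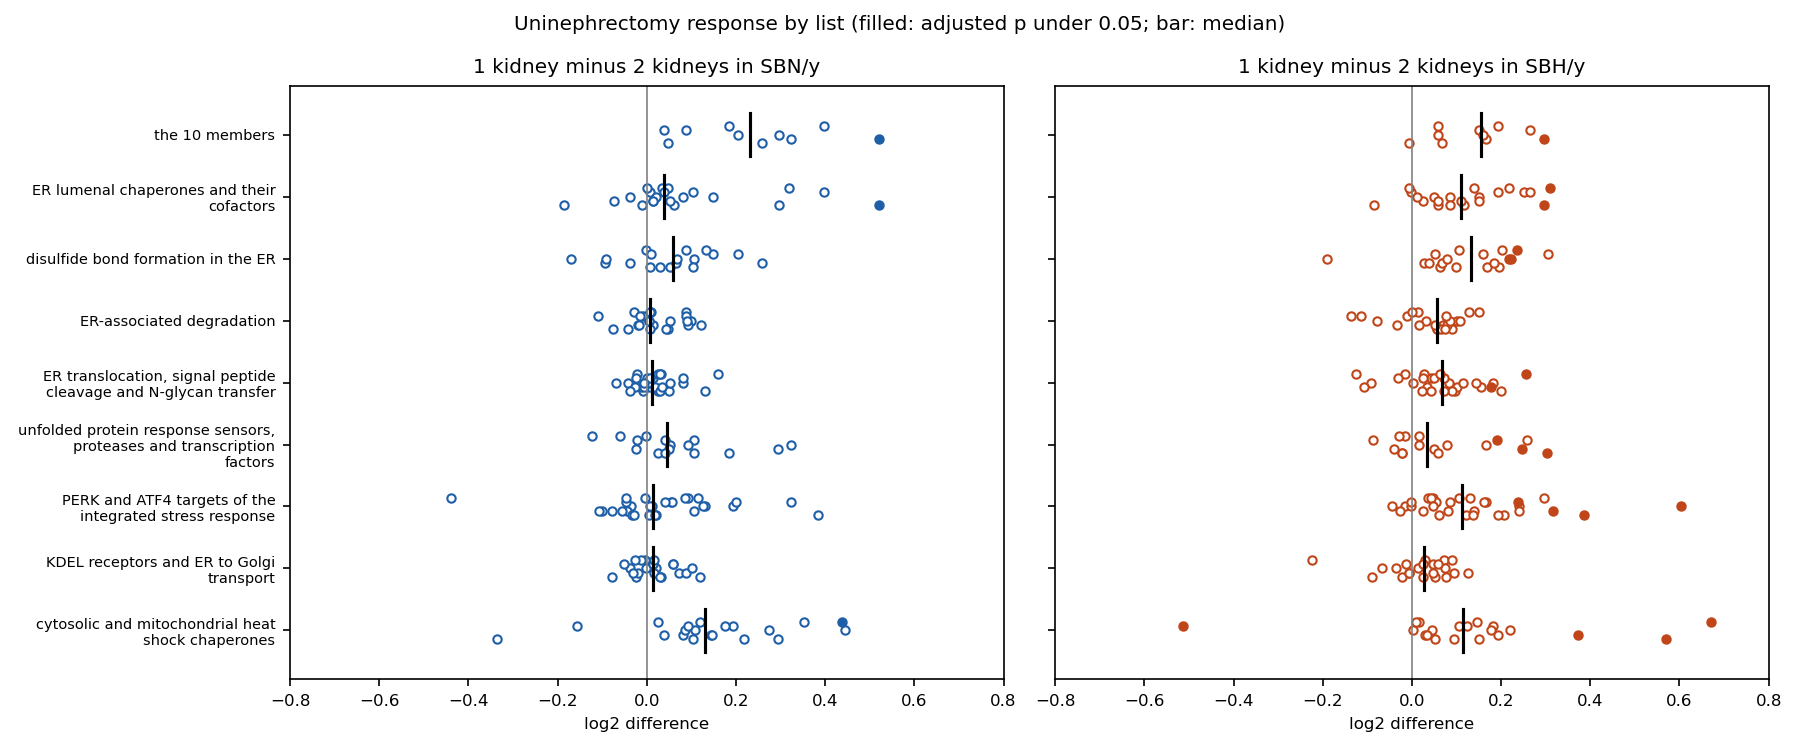
Log2 difference of 1 kidney minus 2 kidneys for each measured gene of the 10 members and of 8 lists, in SBN/y on the left and SBH/y on the right; filled points have an adjusted p under 0.05 and the bar is the median. In SBN/y the members' median is 0.23 and that of 7 of the 8 lists is between 0.007 and 0.06, with 0.13 for the heat shock chaperones. In SBH/y the members' median is 0.155 and those of the 8 lists are between 0.026 and 0.133.

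RNA quality and cell type markers moved with the groups. The GAPDH 3' minus 5' control difference (log2) was 0.352 ± 0.032, 0.451 ± 0.043, 0.46 ± 0.056 and 0.533 ± 0.109 (SD) in SBN/y with 2 and 1 kidney and SBH/y with 2 and 1. With it as a covariate, Sdf2l1 kept both strain calls and Manf both response calls. The summed signal of 8 myeloid markers (log2) ran from 10.855 to 10.953, 10.925 to 11.492, 11.414 to 11.564 and 11.824 to 12.183 in the same order, with 0 of 8 called in SBN/y after uninephrectomy and 8 of 8 in SBH/y. The summed signal of 7 measured B cell and plasma cell markers ran from 6.727 to 7.01 in the first 3 groups. In SBH/y with 1 kidney it ran from 7.285 to 8.204, where 5 of the 7 were under the median signal and 2 were called after uninephrectomy. Between the strains 3 of the 8 myeloid markers were called higher with 2 kidneys and 8 with 1. Their median difference per gene was 0.17 with 2 kidneys and 0.59 with 1. All sums here were made on the linear scale, so the brightest markers weigh most in them. Of the B cell and plasma cell markers, 2 were called higher with 1 kidney. Over all probe sets, 4.32% were called higher and 4.75% lower with 2 kidneys, and 7.55% and 6.43% with 1. The summed signal of 6 fat markers spanned 7.746 to 9.136 among SBN/y rats and 7.521 to 8.159 among SBH/y rats. Of kidney markers, the 8 proximal tubule genes had a summed signal of 13.605 to 13.795 over all groups with 0 under the median, and 2 were called higher in SBH/y with 2 kidneys and 1 with 1. In SBH/y after uninephrectomy, 3 of 6 collecting duct, 2 of 4 podocyte and 2 of 4 endothelial markers fell, and 3 of 5 fibroblast and mesangial markers rose. In that comparison 3.06% of all probe sets were called higher and 1.97% lower. Between the strains with 1 kidney, 3 collecting duct markers were lower and 1 higher, 3 fibroblast and mesangial markers higher and 1 endothelial marker lower in SBH/y. With 2 kidneys, 2 collecting duct markers were higher and 1 lower in SBH/y. Of 6 thick ascending limb and distal tubule markers, 1 was lower in SBH/y at each kidney number. Of other tissues, 3 of 6 fat markers were lower in SBH/y with 2 kidneys and 2 with 1, and 1 fell in SBH/y after uninephrectomy. All 5 measured adrenal genes were under the median signal. The part of cell makeup and RNA quality in the members' differences was not tested.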

How the data were processed

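The deposited log2 values were made by the authors using GCOS and then RMA, as the submitters' processing notes name them, with no version given in the sources used here. RMA is known to equalise the arrays' distributions, so a change in total mRNA cannot be seen. Array medians ran from 4.646 to 4.694. Depth does not apply to arrays, and their number limits the precision. The labels number samples without naming animals; each was taken as 1 rat, and p-values cover the spread among samples, which may be technical.

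All 31042 probe sets other than 57 controls were tested; 20826 had 1 gene symbol in the platform's annotation, which is old. No column of values was left unused. A single limma fit (limma 3.58.1, R 4.3.3), tested on simulated data, held a mean per group; p-values were two-sided and Benjamini-Hochberg adjusted over all probe sets of a comparison, threshold 0.05. Within-array differences used exact permutation and correlations 100000 permutations (scipy 1.17.1).

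The members and lists were chosen with earlier results of these data known. All members were named, then up to 3 called genes per list and comparison by smallest p, and called genes among 10 on each side of Sdf2l1. C-terminal residues of the proteins were planned and not analysed here. Same-numbered samples were checked for pairing: 33 such pairs had correlations from -0.27 to 0.26, with a median of 0.04. The 165 pairs with different numbers ran from -0.42 to 0.44, with a median of -0.01, so numbers were not taken as pairs. The alternatives were quantile normalization applied again, only probe sets above the median in at least 5 arrays (16187), a trended and robust variance, only the groups compared, the next probe set, a GAPDH covariate, a replicate block and each array left out. Leaving out an array of a group that is not compared leaves the difference unchanged and alters only its estimated spread.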

Additional observations from a re-analysis of the deposited data

Results flagged for a closer look

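Within the 40 groups of a gene and a condition, 6 held a rat far from the others by Dixon's test, which flags about 1 in 20 groups by chance. Among SBN/y rats with 1 kidney, Creld2 stood at 8.45 in replicate 3, where the next rat was at 7.99, and Herpud1 at 8.71 in replicate 6, where the next was at 8.93. Among SBH/y rats with 2 kidneys, replicate 3 was low for Dnajb9 (7.19, the next at 7.47) and for Creld2 (7.4, the next at 7.57). In the same group Pdia4 stood at 7.14 in replicate 1, with the next at 7.42, and Xbp1 at 9.6 in replicate 4, with the next at 9.44. None of the 6 was in Sdf2l1 or Manf.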

How the results depend on the processing

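The strain calls of Sdf2l1 and the SBN/y call of Manf held under all alternatives run. Members called between the strains with 2 kidneys went from 2 to 1 with the GAPDH covariate and with the replicate block, and were 1 to 2 when an array was left out; Ddit3 was the gene lost. With 1 kidney they went from 2 to 1 with only the groups compared, the GAPDH covariate and the replicate block, and were 1 to 2 when an array was left out; Creld2 was lost. In SBN/y after uninephrectomy they went from 1 to 2 with quantile normalization repeated, with dim probe sets left out and with the trended and robust variance, where Ddit3 was added, and were 1 to 3 when an array was left out. The 3, without SBN/y 1-kidney replicate 6, were Manf, Hspa5 and Ddit3. In SBH/y they were 0 to 1 when an array was left out, with Manf lost without SBH/y 1-kidney replicate 1. The replicate block changed no other count; the numbers share no known source. Partners of Sdf2l1 that passed were 9 of 9 between the strains throughout, 0 to 2 in SBN/y and 0 to 3 in SBH/y when an array was left out.

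Of the single values, 1400 kept their direction and side of the threshold, 7 passed newly, 23 lost the call and 15 changed sign, all 15 without a call. Hspa5 between the strains with 1 kidney was 0.0114 with the GAPDH covariate and -0.1215 to 0.0255 with an array left out. In that comparison Dnajb9 ran from -0.0803 to 0.0365, Herpud1 from -0.079 to 0.003 and Pdia4 from -0.0111 to 0.0803 with an array left out. In SBN/y after uninephrectomy, Hyou1 was -0.0431 by its next probe set and -0.0064 to 0.0794 with an array left out, and Sdf2l1 -0.0349 to 0.1003. In SBH/y, Hyou1 ran from -0.037 to 0.0287, and for the difference between responses Pdia4 from -0.0984 to 0.0054. The cause was not tested. Groups of 5 or 6 rats limit the precision, and the Sdf2l1 signal in SBN/y lies near the middle of the array.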
